A study of Mus musculus with 16 samples.

Results

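Keratin genes were followed across 16 mouse arrays from ES cells, kidney, liver and the tumors that arise in those organs after reprogramming factors are switched on in the animal for a short time. The members were all genes whose single annotated symbol is Krt followed directly by a number, which leaves out the keratin-associated proteins (Krtap). A probe set is a group of probes read as 1 transcript, and each gene was read from its brightest probe set by mean level. This gave 52 keratin genes among the 19938 genes measured, and all 52 matched a RefSeq mouse gene by Entrez number and by symbol. They fell into 5 simple, 3 basal, 10 suprabasal, 4 stress and 22 hair keratins, with 8 keratins outside these classes. Krt81, Krt83, Krt85 and the pseudogene Krt8-ps had no probe set of their own and were not analysed here.

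The arrays formed 6 groups. The ES cell group is 1 array of a culture with a 129xC57BL6 F1 background. Normal kidney, kidney tumor, normal liver, liver tumor and secondary kidney tumor had 3 arrays each, from animals derived from that line, so the background was either the same F1 or a mixture of its parent strains. Kidney tumors came from reprogrammable mice, which carry a doxycycline-inducible reprogramming system. Treatment began at 4 weeks of age and lasted 7 days, and the tumors were taken 7 days after doxycycline was withdrawn. Normal kidney was taken at the same age. The liver tumors were primary tumors of reprogrammable mice, with a schedule not given in the sources used here. The secondary kidney tumors were kidney tumors transplanted under the skin of immunodeficient mice, so cells of the host can be among them. The tumors arose in chimeras, so cells of the ICR strain may be present in them too. Whether the 3 arrays of a group stand for different animals is not stated, and a p-value here covers only their own spread, which may be technical.

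Keratins are the intermediate filament proteins of epithelial cells, and a filament always pairs a type I with a type II keratin. Simple epithelia such as kidney tubules and hepatocytes build theirs from Krt8 and Krt18, and ducts add Krt7 and Krt19. Stratified epithelia use Krt5 with Krt14 or Krt15 in the basal layer and change to Krt1 with Krt10 in the suprabasal epidermis, or to Krt4 with Krt13 in the suprabasal layers of mouth and oesophagus. Krt6a, Krt6b, Krt16 and Krt17 are the stress keratins of wounded or rapidly growing stratified epithelium, and the hair keratins form the hair shaft and its sheaths.

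The stretch just upstream of the gene start is shown for 5 keratins, and how alike the promoters are was not measured. Krt8, Krt18 and Krt20 are simple keratins that rose in primary kidney tumors, and Krt5 and Krt13 are stratified keratins that rose in secondary tumors. RefSeq promoters were at hand for 36 of the 52 genes, and 29 of these end at the outer start of the gene; the other 7 belong to a start inside the gene and were not used. Krt4, Krt15, Krt6a, Krt17 and Krt19, which also changed, are not among the 36. Each line gives the 100 bases before the annotated start, 5′ to 3′ on the gene's strand, from the GRCm38.p6 assembly, with the letters ATAAA of a TATA-like element in capitals where they lie 40 to 16 bases before the start.
Krt8, chr15:102004343-102004442, minus strand: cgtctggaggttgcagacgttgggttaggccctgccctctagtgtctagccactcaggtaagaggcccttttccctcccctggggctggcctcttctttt
Krt18, chr15:102028116-102028215, plus strand: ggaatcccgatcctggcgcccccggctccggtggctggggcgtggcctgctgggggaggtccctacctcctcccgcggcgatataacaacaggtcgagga
Krt20, chr11:99438154-99438253, minus strand: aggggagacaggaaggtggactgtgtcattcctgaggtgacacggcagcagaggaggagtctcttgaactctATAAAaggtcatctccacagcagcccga
Krt5, chr15:101712906-101713005, minus strand: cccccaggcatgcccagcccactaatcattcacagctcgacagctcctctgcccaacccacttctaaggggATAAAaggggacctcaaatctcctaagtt
Krt13, chr11:100121567-100121666, minus strand: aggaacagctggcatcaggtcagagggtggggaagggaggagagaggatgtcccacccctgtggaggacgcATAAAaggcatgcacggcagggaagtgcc

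The letters ATAAA stood in that window in 17 of the 29 keratin promoters (58.6%), against 1051 of 19827 promoters of all genes chosen the same way (5.3%). On the other strand, the letters TTTAT stood there in 0 of the 29 keratin promoters and in 511 of all promoters (2.58%). By class, ATAAA was in 12 of 16 hair, 2 of 3 suprabasal, 1 of 4 simple and 1 of 1 basal keratin promoters. It was also in 1 of 5 promoters of unclassed keratins. Other spellings of a TATA-like element were not searched, so a promoter without ATAAA may still hold one. A match is a description of the letters only. Krt20 and Krt5, which changed in different tumors, both hold ATAAA.

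Values below are log2 intensities of the deposited, already scaled arrays. A change is the difference of group means ± SE from a linear model over all 16 arrays, and a gene is called where its p, adjusted by Benjamini-Hochberg over the 19938 genes, is under 0.05. The arrays read a tissue piece as a whole, so fewer cells of a type and less RNA per cell cannot be told apart. Levels of different probe sets are not comparable between genes. The labels of the normal organs and the primary tumors held against their markers, with exceptions. For the secondary kidney tumors, the mean of the tubule genes did not bear out a kidney label. The mean of 6 kidney tubule genes was 12.64 to 12.82 in normal kidney, 10.76 to 11.88 in kidney tumors and 6.84 to 6.96 in secondary kidney tumors, beside 6.92 in ES cells. The mean of 5 hepatocyte genes was 13.60 to 13.65 in normal liver and 12.63 to 13.47 in liver tumors. Normal liver 1 was high in tubule genes, with the transporter Slc34a1 at 11.29 against 9.54 and 7.75 in the other normal livers. Fat genes were high on normal kidney 2, normal liver 1 and secondary kidney tumor 1, where Adipoq was 9.87 to 10.38 and elsewhere 5.44 to 6.16. Xist was high in kidney tumors 2 and 3 and in liver tumors 2 and 3, at 10.19 to 11.35, against 5.60 to 6.31 in the other tissue arrays. Genes of the Y chromosome were read on the same arrays. Eif2s3y was 7.80 to 9.18 (9.47 to 10.10 in the other tissue arrays), Uty 8.18 to 8.95 (9.27 to 9.90) and Kdm5d 7.03 to 8.09 (7.99 to 8.97). A mixture of male and female cells was not tested.

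Most keratin genes barely moved over these tissues. Of the 52 genes, 32 spanned less than 1 log2 unit from the lowest to the highest array, and 13 spanned more than 2. The same spans were not counted over all genes, so these counts do not set keratins apart from other genes. All 5 simple and all 3 basal keratins were among the 13 of widest span, with 2 suprabasal and 2 stress keratins and Krt42. Of the 22 hair keratins, 20 spanned less than 1. In all, 35 of the 52 keratins had a mean in the dimmest 33.3% of the genes, at or under 7.17. The files give no detection call, so a keratin at that level on all arrays could not be told from background. Krt20, Krt6a, Krt17 and Krt75 have such a mean but reach 11.21, 10.35, 9.52 and 8.28 on their highest arrays. Others with such a mean, such as Krt1 (up to 7.43) and Krt23 (up to 7.30), also go above that level on some arrays.

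**Figure D1:**
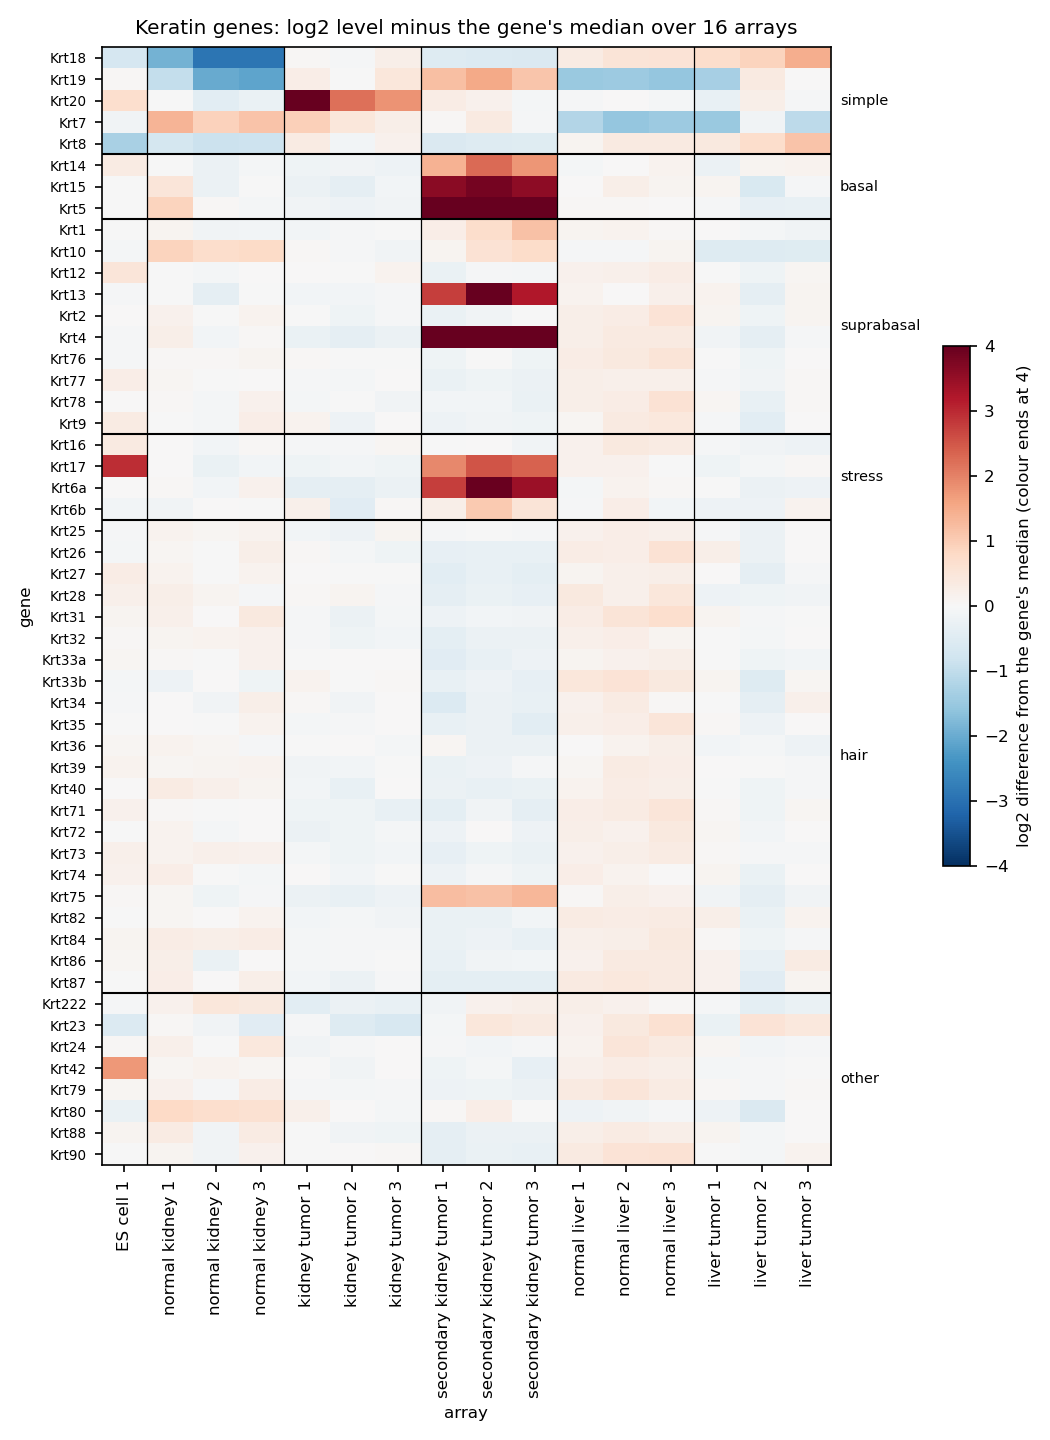
Each row is a keratin gene, each column an array, and the colour is the log2 level minus the gene's median over 16 arrays, from blue (lower) to red (higher), with colours ending at a difference of 4. The simple keratins vary over all tissues, the strong red block of Krt5, Krt15, Krt4, Krt13, Krt6a, Krt17 and Krt14 lies in the 3 secondary kidney tumor arrays, and 20 of the 22 hair keratins span less than 1 log2 unit.

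In kidney tumors against normal kidney, 4 keratins were higher and 8 lower (7.69% and 15.4% of the 52), where 21.7% and 28.1% of all genes were. In secondary kidney tumors against normal kidney 12 were higher and 25 lower (23.1% and 48.1%), beside 29.9% and 38.7% of all genes. In secondary against primary kidney tumors 13 were higher and 8 lower (25% and 15.4%), beside 18.5% and 17.4%. In liver tumors against normal liver 2 were higher and 32 lower (3.85% and 61.5%), beside 21.5% and 30.7%. As a whole the family was not called higher more often than genes at large in the primary tumors, and its calls were sorted by class. With each array centred on its own median these counts became 4 and 20, 11 and 36, 11 and 11, and 1 and 37, and the median change of all genes went from -0.11, -0.12, -0.07 and -0.13 to -0.24, -0.35, -0.16 and -0.33.

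**Figure D2:**
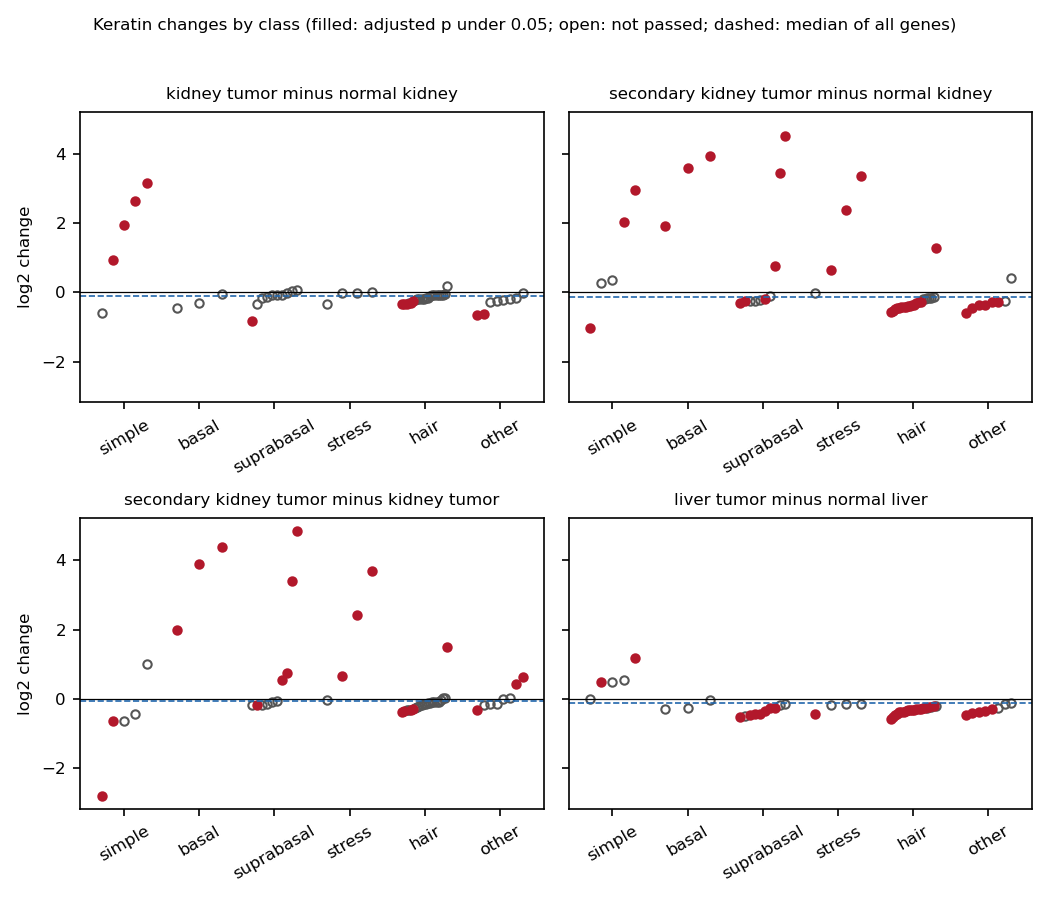
Each point is a keratin gene, placed by class along the horizontal axis, with its log2 change on the vertical axis in 4 comparisons; filled red points have an adjusted p under 0.05, open points do not, and the dashed blue line is the median of all genes. Simple keratins stand far from 0 in primary and in secondary kidney tumors (Krt20 at 3.15 and then at -2.79), and basal, suprabasal and stress keratins and the hair keratin Krt75 do so in secondary tumors.

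Krt18, the type I keratin of simple epithelia, set normal kidney apart from every other group. It was 9.94, 8.89 and 8.89 in the 3 normal kidneys, 12.14, 12.33 and 12.35 in normal liver and 11.13 in ES cells. In kidney tumors it was 11.87, 11.75 and 12.04, so the lowest tumor lay well above the highest normal kidney. The rise was 2.65 ± 0.25 (6.28-fold, adjusted p = 2.86e-06, n = 3 a group, limma), and it was 3.00 without normal kidney 1 and 2.63 without kidney tumors 2 and 3. Normal kidney 1 also held more of the bladder lining gene Upk1a, at 9.09 against 7.60 and 7.72, and more Krt5, Krt15 and Krt19 than the other normal kidneys; the part of urothelium in its keratin levels was not tested.

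Krt8, the type II partner of Krt18, changed the same way by less. Normal kidneys held 11.78, 11.63 and 11.67 and kidney tumors 12.83, 12.38 and 12.66, with no overlap, a rise of 0.93 ± 0.16 (1.90-fold, adjusted p = 0.000351, limma). Normal kidney was below normal liver for both partners, by 3.03 ± 0.25 for Krt18 (adjusted p = 5.93e-07, limma) and by 1.07 ± 0.16 for Krt8 (adjusted p = 0.000141, limma). The difference in size between the partners was not tested, since probe sets of different genes do not share a scale.

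Krt19, a type I keratin of ducts, was 8.16, 7.11 and 7.00 in normal kidney and 9.39, 9.11 and 9.58 in kidney tumors. The groups did not overlap, and the rise was 1.94 ± 0.38 (3.83-fold, adjusted p = 0.000828, limma). Krt7, the type II keratin of ducts and of the collecting system, did not share it. Its levels were 10.28, 9.85 and 10.05 in normal kidney and 9.86, 9.38 and 9.16 in kidney tumors, which overlap, with a change of -0.59 ± 0.28 (adjusted p = 0.0967, limma). The change of Krt7 passed without kidney tumor 1 (-0.79, adjusted p = 0.0439). Krt7 was the only simple keratin called higher in normal kidney than in normal liver, where it was 7.75, 7.37 and 7.45, a difference of 2.54 ± 0.28 (adjusted p = 9.16e-06, limma). Krt80 (0.82 ± 0.14) and Krt10 (0.77 ± 0.13) were the other 2 keratins higher in normal kidney, where 13 keratins were lower than in normal liver (5.77% and 25% of the 52, beside 21.4% and 16.4% of all genes). That lower count was 7 without normal kidney 2 and 8 without normal liver 3.

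Krt20, the keratin of intestinal epithelium and of the urothelial surface, showed the widest spread of any keratin within a group. It was 11.21, 8.61 and 8.22 in kidney tumors, and between 6.02 and 7.10 in the other 13 arrays. Every kidney tumor lay above every other array, and kidney tumor 1 stood far above the others. The rise over normal kidney was 3.15 ± 0.54 (8.91-fold, adjusted p = 0.000333, limma). It was 2.22 without kidney tumor 1 (adjusted p = 8.15e-07, limma) and 5.01 with kidney tumor 1 as the only tumor. Kidney tumor 1 was also the only array with a raised Sprr2f, a small proline-rich gene of barrier epithelia, at 8.89 against 5.20 to 5.99 in the other 15. The 4 uroplakin genes of urothelium had means of 6.82 to 6.93 in kidney tumors and 7.24 to 8.17 in normal kidney. Of the 4, 3 were called lower, beside 28.1% of all genes, and the part of urothelium was not tested.

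**Figure D3:**
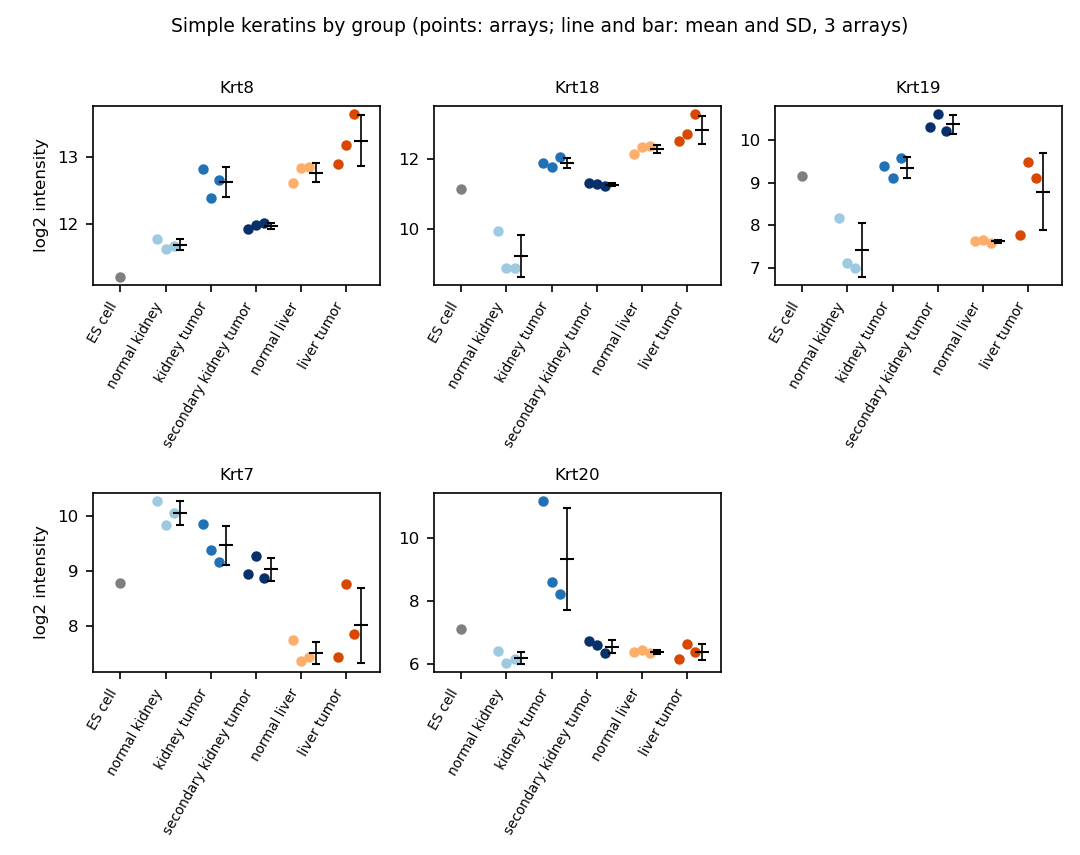
Log2 intensity of the 5 simple keratins, with a panel per gene, a point per array and the mean with its SD over 3 arrays beside each group; the vertical axes differ and do not start at 0. Krt18 is lowest in normal kidney, Krt20 is raised in the 3 kidney tumors with 1 array at 11.21, and Krt7 is highest in normal kidney.

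Outside the simple class, limma called 0 of 47 keratins higher in kidney tumors, and 0 had an unadjusted p under 0.05, while 8 fell by less than 2-fold, in a comparison where 8.03% of all genes fell by 2-fold or more. Krt10, a suprabasal keratin, was 8.29, 8.11 and 8.18 in normal kidney and 7.44, 7.35 and 7.28 in kidney tumors, a fall of 0.84 ± 0.13 on the log2 scale (adjusted p = 0.000124, limma). Krt222 (-0.66 ± 0.12) and Krt80 (-0.63 ± 0.14, with its call lost without kidney tumors 2 and 3 at adjusted p = 0.0978) came next, and the 5 others were the hair keratins Krt84, Krt40, Krt31, Krt73 and Krt32, each changed by -0.34 to -0.25. Of the dimmest 33.3% of all genes, 19.2% were called lower in this comparison, beside 22.7% of the hair keratins.

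The liver tumors changed fewer simple keratins, and these changes were uneven between arrays. Krt19 was 7.63, 7.65 and 7.58 in normal liver and 7.78, 9.49 and 9.12 in liver tumors: all tumors were above the normal livers, but liver tumor 1 by little. The rise was 1.17 ± 0.38 (2.25-fold, adjusted p = 0.0203, limma). Krt8 was 12.61, 12.84 and 12.85 in normal liver and 12.89, 13.19 and 13.64 in liver tumors, a rise of 0.47 ± 0.16 (adjusted p = 0.0263, limma). Both calls were lost when the compared groups were fitted alone, at adjusted p of 0.0609 for Krt19 and 0.0962 for Krt8. Without liver tumors 2 and 3, the arrays with Xist signal, Krt19 was 0.16 above normal liver (adjusted p = 0.772, limma) and Krt8 0.13 above (adjusted p = 0.573, limma); the single array left is assumed to vary like the other groups. Krt19 also lost its call without normal liver 3 (adjusted p = 0.0509), without liver tumor 2 (0.0971) or without liver tumor 3 (0.0685), and Krt8 without normal liver 1 (0.0902) or without liver tumor 3 (0.109). The hepatocyte enzymes Cps1 and Tat were also lower on liver tumors 2 and 3, with Cps1 at 11.98 and 11.46 against 13.39 on liver tumor 1, and Tat at 11.15 and 10.85 against 13.19. The rest of the hepatocyte list did not share this fall. On liver tumors 1, 2 and 3, Alb was 13.75, 13.54 and 13.74, Apoa1 13.78, 13.65 and 13.70, and Ttr 13.24, 13.35 and 13.42. The part of hepatocyte content was not tested.

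Krt18 was 12.14, 12.33 and 12.35 in normal liver and 12.51, 12.69 and 13.28 in liver tumors, a change of 0.55 ± 0.25 that did not pass (adjusted p = 0.078, limma). Without liver tumor 1 it was 0.71 and passed (adjusted p = 0.0412). Krt7 was 7.75, 7.37 and 7.45 against 7.44, 8.77 and 7.86, and its change of 0.50 ± 0.28 did not pass (adjusted p = 0.148, limma) until liver tumor 1 was left out (0.79, adjusted p = 0.0247). Krt20 stayed near the level of normal liver, with 6.14, 6.64 and 6.36 against 6.37, 6.44 and 6.33 (0.00 ± 0.54, adjusted p = 0.997, limma). Of the bile duct genes measured, Epcam rose from 6.28 to 6.61 in normal liver to 8.41 to 10.29 in liver tumors, while Sox9 (9.30 to 9.54 and 9.38 to 10.15) and Cftr (6.02 to 6.35 and 5.78 to 6.21) did not pass.

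In liver tumors 32 keratins were lower, all by less than 2-fold where 4.97% of all genes fell by 2-fold or more, with Krt33b (-0.57 ± 0.14), Krt28 (-0.52 ± 0.09) and Krt10 (-0.51 ± 0.13) first. They were 19 of the 22 hair, 7 of the 10 suprabasal, 1 of the 4 stress keratins (Krt16) and 5 of the 8 unclassed keratins. Most are dim, and 35% of the dimmest 33.3% of all genes were called lower in the same comparison. The median change was -0.28 over the 52 keratins and -0.13 over all genes. Without liver tumor 2 the count was 21, and with liver tumor 1 as the only tumor it was 7.

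Whether tumors of both organs changed keratins alike was tested as the kidney tumor change minus the liver tumor change in the same model. It passed for 7 keratins, all with the higher value in kidney, and for 0 with the lower, where 2 had an unadjusted p under 0.05, Krt7 and Krt80 (13.5% and 0% of the 52, beside 7.54% and 9.26% of all genes). Of the simple keratins these were Krt20, by 3.15 ± 0.77 (adjusted p = 0.0136, limma), and Krt18, by 2.10 ± 0.35 (adjusted p = 0.0015, limma). Krt19 (0.77 ± 0.53), Krt8 (0.46 ± 0.23) and Krt7 (-1.09 ± 0.40) did not pass, at adjusted p of 0.378, 0.207 and 0.0806 by limma. Krt8 passed without liver tumor 3 (0.66, adjusted p = 0.0294), and Krt7 without kidney tumor 1 (-1.29, adjusted p = 0.0364) or liver tumor 1 (-1.38, adjusted p = 0.0182). The count of 7 was 3 without normal liver 2, and 4 without normal kidney 2, kidney tumor 2, kidney tumor 3 or normal liver 3; 1 keratin was lower without kidney tumor 1, liver tumor 1 or liver tumor 2.

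The secondary kidney tumors held the keratins of stratified epithelium, which the primary kidney tumors did not show above the level of normal kidney. All 3 basal keratins rose. Krt5, the type II keratin of basal cells, was 6.59, 6.55 and 6.61 in kidney tumors and 10.75, 11.41 and 10.77 in secondary tumors, a rise of 4.39 ± 0.22 (21.0-fold, adjusted p = 1.05e-08, limma). Krt15, a type I partner of Krt5, was 6.73, 6.60 and 6.83 in kidney tumors and 10.57, 10.78 and 10.52 in secondary tumors, a rise of 3.91 ± 0.19 (adjusted p = 8.86e-09, limma). Krt14, the usual type I partner of Krt5, went from 6.71, 6.73 and 6.65 to 8.25, 9.14 and 8.62, a rise of 1.98 ± 0.18 (3.93-fold, adjusted p = 1.81e-06, limma). For each of the 3 genes, the lowest secondary tumor was above all other 13 arrays.

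Among the suprabasal keratins, the pair of mouth and oesophagus and the pair of epidermis both rose over primary tumors, and the difference in size between the pairs was not tested. Krt4 was 6.06, 5.98 and 6.12 in kidney tumors and 10.60, 11.57 and 10.51 in secondary tumors, a rise of 4.84 ± 0.21 (28.6-fold, adjusted p = 3.89e-09, limma). Its partner Krt13 was 6.68, 6.67 and 6.73 and then 9.54, 10.78 and 9.99, a rise of 3.41 ± 0.24 (10.6-fold, adjusted p = 2.09e-07, limma). In all 3 secondary tumors both genes were at least 2 log2 units above every other array.

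The epidermal type II keratin Krt1 was 6.17, 6.21 and 6.25 in kidney tumors and 6.52, 6.97 and 7.43 in secondary tumors. It rose by 0.76 ± 0.17 (1.69-fold, adjusted p = 0.00295, limma), and the lowest secondary tumor was close to the highest normal liver, at 6.42. Its partner Krt10 was 7.44, 7.35 and 7.28 and then 7.53, 8.0 and 8.14, a rise of 0.53 ± 0.13 over kidney tumors (adjusted p = 0.00524, limma) that did not pass with kidney tumor 1 as the only primary tumor (0.45, adjusted p = 0.108). Against normal kidney Krt10 was lower (-0.30 ± 0.13, adjusted p = 0.0489, limma) with overlapping arrays, and that call was lost when any normal kidney or secondary tumor 1 was left out. The other suprabasal keratins, Krt2, Krt9, Krt12, Krt76, Krt77 and Krt78, changed by -0.19 to -0.07 between primary and secondary tumors, and of these Krt77 passed.

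Of the stress keratins, Krt6a, Krt17 and Krt6b rose and Krt16 did not. Krt6a was 6.06, 6.06 and 6.17 in kidney tumors and 9.17, 10.35 and 9.83 in secondary tumors, a rise of 3.69 ± 0.21 (12.9-fold, adjusted p = 3.12e-08, limma). Krt17 was 6.41, 6.47 and 6.40 and then 8.50, 9.10 and 8.92, a rise of 2.41 ± 0.13 (5.31-fold, adjusted p = 1.99e-08, limma). Krt17 was also high in ES cells, at 9.52, above all secondary tumors, while Krt5, Krt4 and Krt6a in ES cells (6.72, 6.30 and 6.43) were near the tissue levels.

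Krt16, the usual type I partner of Krt6 in wounded skin, was 6.05, 6.05 and 6.17 in kidney tumors and 6.08, 6.09 and 5.95 in secondary tumors (-0.05 ± 0.08, adjusted p = 0.684, limma). A probe set near background cannot show that the transcript is absent. Krt6b rose by 0.67 ± 0.20 (adjusted p = 0.0207, limma), but Krt6a and Krt6b are close copies, and the probes of Krt6b may read some Krt6a, so that value is uncertain. The same holds among Krt14, Krt16 and Krt17, which are close copies of each other.

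**Figure D4:**
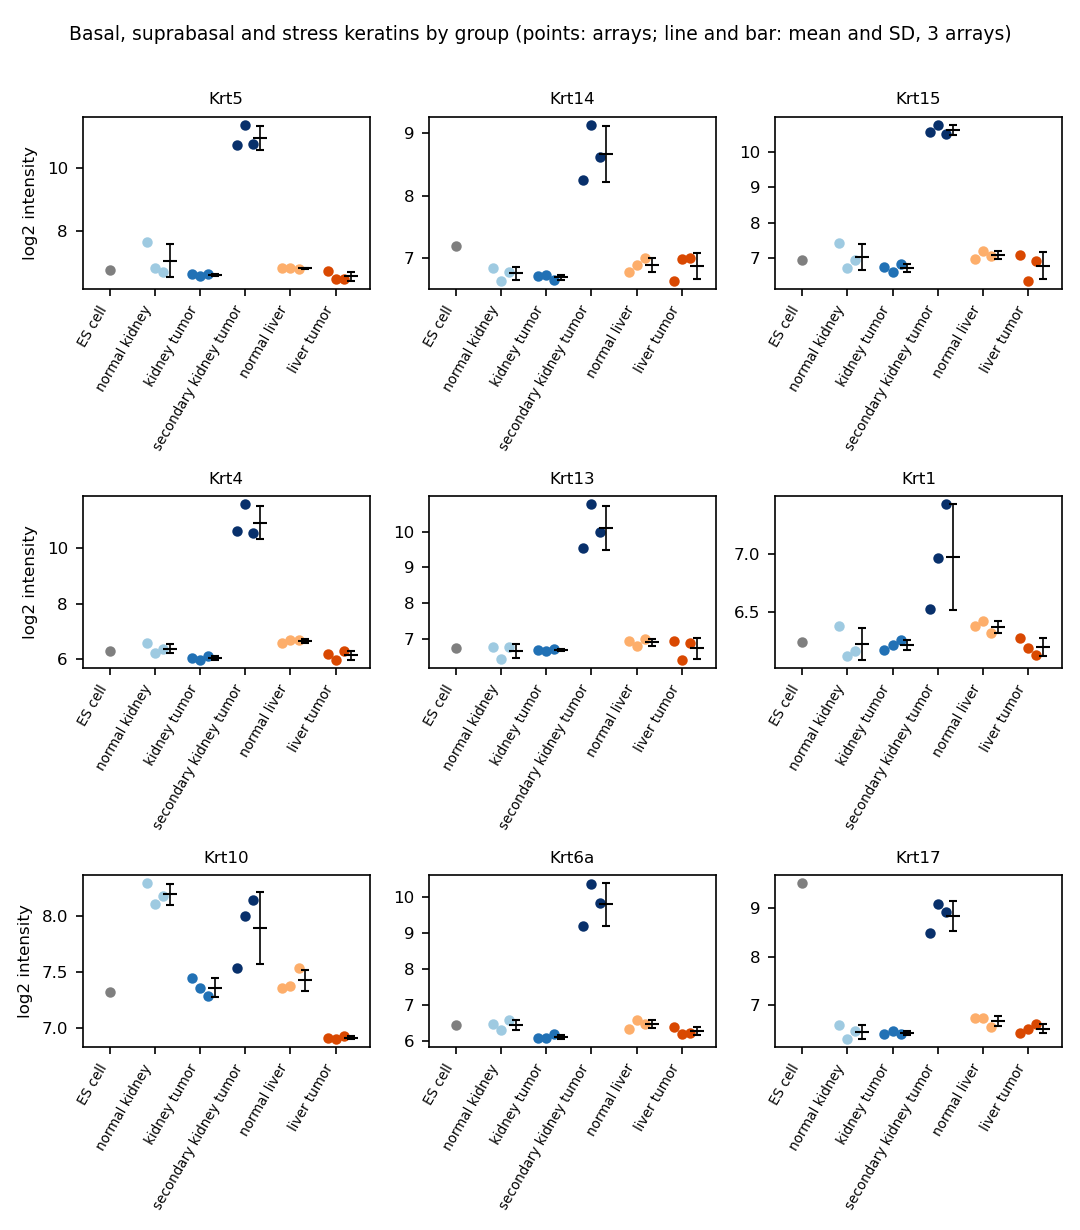
Log2 intensity of 9 keratins of stratified epithelium, with a panel per gene, a point per array and the mean with its SD over 3 arrays beside each group; the vertical axes differ and do not start at 0. In all panels but Krt10, the secondary kidney tumors lie above the other tissue groups, and Krt17 is also high on the ES cell array, at 9.52.

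The rises were as clear against normal kidney, which serves both tumor groups as a control, so the comparisons are not independent. Against normal kidney, Krt4 was higher by 4.50 ± 0.21, Krt5 by 3.95 ± 0.22, Krt15 by 3.60 ± 0.19, Krt13 by 3.45 ± 0.24, Krt6a by 3.35 ± 0.21, Krt17 by 2.39 ± 0.13 and Krt14 by 1.92 ± 0.18. In the same genes, the kidney tumors differed from normal kidney by -0.45 to 0.04, and none passed. Krt5, the lowest of them, passed without normal kidney 3 (-0.63, adjusted p = 0.0442) and was -0.14 without normal kidney 1. With kidney tumor 1 as the only primary tumor, the differences to it were 4.83 for Krt4, 4.38 for Krt5 and 3.90 for Krt15. At 2-fold or more, 8 keratins were higher in secondary than in primary kidney tumors (15.4% of the 52, beside 7.46% of all genes). In these 8 genes the primary tumor means lay under 7.17, the level of the dimmest 33.3% of the genes, so each fold is over a level that may be background and could understate the change. In 7 of these 8, secondary tumor 2 was the highest array, and in Krt75 it was tumor 3.

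Most hair keratins moved little in the transplants. Krt75, which belongs to the companion layer of the hair follicle, was the exception, with 6.71, 6.65 and 6.73 in kidney tumors and 8.19, 8.11 and 8.28 in secondary tumors, a rise of 1.50 ± 0.09 (2.82-fold, adjusted p = 3.79e-08, limma). The other 21 hair keratins changed by -0.37 to 0.04, and 4 of them passed as lower, by less than 2-fold (4.36% of all genes were lower by 2-fold or more): Krt27, Krt28, Krt33a and Krt35. Against normal kidney 15 of the 22 were lower, the lowest being Krt87 (-0.58 ± 0.13) and Krt84 (-0.54 ± 0.07). In that comparison 43.6% of the dimmest 33.3% of all genes were called lower.

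Among the unclassed keratins, the call of Krt23 rests on few arrays. Krt23 was higher in secondary than in primary kidney tumors by 0.63 ± 0.23 (adjusted p = 0.0482, limma) with overlapping arrays, at 6.67, 6.20 and 6.07 against 6.63, 7.15 and 7.06. The call was lost without kidney tumor 2 (adjusted p = 0.127), kidney tumor 3 (0.154), secondary tumor 2 (0.155) or secondary tumor 3 (0.129). Krt222 was higher than in primary tumors by 0.42 ± 0.12. Against normal kidney it did not pass, with overlapping arrays (6.32, 6.64 and 6.70 against 6.63, 6.91 and 6.85). Krt42 had its highest array in ES cells, at 8.85, while the tissue arrays lay between 6.79 and 7.40.

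The simple keratins took a mixed course in the transplants. Krt18 was 11.30, 11.27 and 11.22, between normal kidney and the primary tumors, and was higher than normal kidney by 2.03 ± 0.25 (4.07-fold, adjusted p = 1.13e-05, limma). Below the primary tumors it was lower by a margin that did not pass (-0.63 ± 0.25, adjusted p = 0.068, limma), although the arrays did not overlap. Krt8 was 11.92, 11.99 and 12.01, lower than in primary tumors (-0.65 ± 0.16, adjusted p = 0.00683, limma), and 0.28 ± 0.16 above normal kidney, which did not pass (adjusted p = 0.135, limma).

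Krt19 reached its highest levels here, at 10.30, 10.63 and 10.21, which was 2.96 ± 0.38 above normal kidney (7.77-fold, adjusted p = 1.56e-05, limma). Against primary tumors the difference of 1.02 ± 0.38 narrowly failed (adjusted p = 0.0509, limma) with all secondary arrays above all primary ones. Krt7, at 8.96, 9.28 and 8.88, was below normal kidney by 1.02 ± 0.28 on the log2 scale (adjusted p = 0.00606, limma). Krt20 returned to the level of normal kidney, at 6.72, 6.60 and 6.34, which was -2.79 ± 0.54 from primary tumors (adjusted p = 0.00133, limma), or -1.86 without kidney tumor 1 and -4.65 with it as the only primary tumor.

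Type I keratin genes lie on mouse chromosome 11 and type II genes on chromosome 15, with the type I gene Krt18 beside Krt8 at an end of the chromosome 15 cluster. The 52 members divided into 27 on chromosome 11 and 25 on chromosome 15, and the 8 keratins at least 2-fold higher in secondary than in primary kidney tumors into 4 and 4. On chromosome 11 Krt13 and Krt15 were neighbours, and on chromosome 15 Krt6a and Krt5 were. The other 4 had no direct neighbour among the 8. Krt14 and Krt17 were separated by Krt16, which did not pass, and Krt4 lay among keratins that changed little. Krt75 and Krt6a were separated by Krt6b, which was also called higher, by 0.67, and is left out of the 8 only by the 2-fold threshold. Krt19 lies beside Krt15, and Krt20, which moved the other way, lies further along the same cluster.

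**Figure D5:**
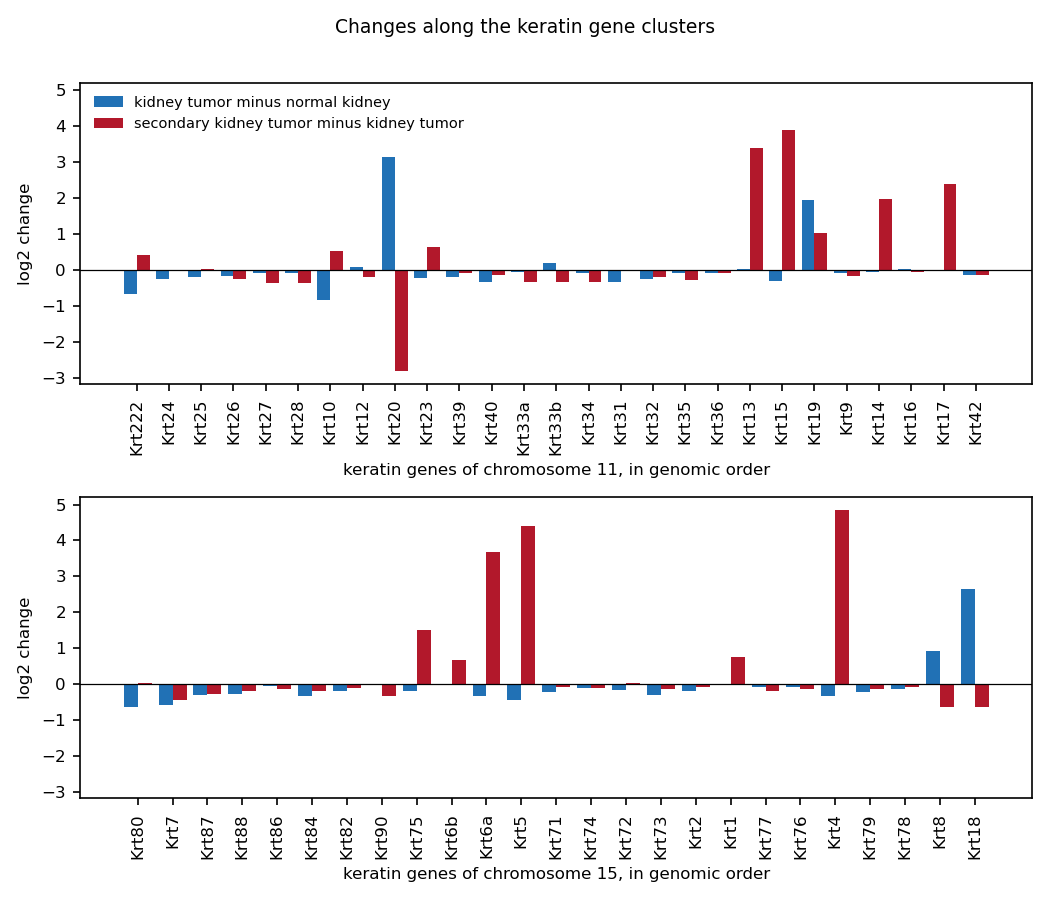
Log2 change of each keratin gene in genomic order on chromosome 11 (upper panel) and chromosome 15 (lower panel), with blue bars for kidney tumor minus normal kidney and red bars for secondary minus primary kidney tumor. The tall red bars stand at several positions, with 2 pairs of neighbours (Krt13 with Krt15, and Krt6a with Krt5). Krt6b, between Krt75 and Krt6a, has a lower red bar (0.67). The tall blue bars stand at Krt20, Krt19, Krt8 and Krt18.

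Other genes of stratified epithelium were read from lists of junction and envelope genes. Of 19 junction and basement membrane genes, 11 were higher and 2 lower in secondary than in primary kidney tumors, beside 18.5% and 17.4% of all genes. The desmosomal cadherin gene Dsg3 was 5.64, 5.70 and 5.45 in kidney tumors and 7.99, 9.02 and 8.13 in secondary tumors (2.78 ± 0.21, adjusted p = 3.6e-07, limma), and Dsc3 rose by 1.82 ± 0.09. Trp63, the transcription factor of basal cells, was 6.88, 7.07 and 7.03 and then 8.42, 8.06 and 7.94 (1.15 ± 0.15, adjusted p = 5.45e-05, limma). In kidney tumors against normal kidney the same list had 3 higher and 6 lower (21.7% and 28.1% of all genes), in secondary tumors against normal kidney 12 and 4 (29.9% and 38.7%), and in liver tumors against normal liver 2 and 7 (21.5% and 30.7%).

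Of 17 genes of the cornified envelope, the cross-linked shell of surface cells, 6 were higher and 2 lower in secondary than in primary kidney tumors, beside 18.5% and 17.4% of all genes. Sprr3, an envelope gene of the oesophagus, was 5.81, 5.62 and 5.81 and then 7.65, 9.91 and 8.16, a rise of 2.83 ± 0.39 (adjusted p = 9.56e-05, limma), highest in secondary tumor 2 as for Krt4 and Krt13. Tgm1, which cross-links the envelope, fell by 2.42 ± 0.43. Skin at the site of transplantation was read from 5 genes of cornifying epidermis, with a mean of 6.57 to 7.03 in secondary tumors and 6.28 to 6.34 in kidney tumors. That mean was 6.36 to 6.42 in normal kidney, 6.54 to 6.61 in normal liver, 6.19 to 6.49 in liver tumors and 6.57 in ES cells. Among them Asprv1 (7.75, 9.08 and 8.05) was above all other groups in each secondary tumor. Lor (6.84, 7.52 and 6.85) was so only in secondary tumor 2, beside 6.88 in liver tumor 3. Flg2 (5.51 to 5.59), Casp14 (5.89 to 6.0) and Cdsn (6.83 to 7.01) lay within the range of the other groups. The part of host skin was not tested. The uroplakins, which mark a bladder-type epithelium, had a mean of 8.05 to 8.17 in secondary tumors. There 3 of the 4 were higher than in primary tumors, beside 18.5% of all genes. Upk1b was 10.21, 10.47 and 10.22, a rise of 3.77 ± 0.36, and Upk2 and Upk3a rose by 0.48 ± 0.14 and 0.53 ± 0.14, while Upk1a (0.18 ± 0.29) did not pass. Against normal kidney, where the mean was 7.24 to 8.17, 1 uroplakin was higher and 1 lower in secondary tumors (29.9% and 38.7% of all genes).

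Of 17 genes of simple epithelium, 4 were higher and 2 lower in kidney tumors against normal kidney (21.7% and 28.1% of all genes), and 11 higher and 2 lower in liver tumors against normal liver (21.5% and 30.7%). The 4 of 17 in kidney tumors are near the share of all genes. The claudin gene Cldn6 rose by 4.32 ± 0.32 in kidney tumors and by 3.76 ± 0.32 in liver tumors, and Esrp2, an epithelial splicing factor gene, fell by 1.31 ± 0.23 in kidney tumors. In secondary against primary kidney tumors 0 of these genes were higher by limma (1 at an unadjusted p under 0.05, Grhl2) and 6 lower (18.5% and 17.4% of all genes), with Spint1 changed by -1.33 ± 0.27 and Cldn6 by -0.93 ± 0.32. Of 10 genes of the hair follicle, 3 were higher and 1 lower in kidney tumors (21.7% and 28.1% of all genes), and in secondary against primary tumors 0 were higher by limma, also at an unadjusted p under 0.05, and 4 were lower (18.5% and 17.4%).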

How the data were processed

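RNA of 16 mouse samples was read on 1-channel Affymetrix arrays. Each deposited value is a probe set's intensity on a linear scale, and how the authors corrected and scaled them is not given in the sources used here; array medians of 7.82 to 8.18 (log2) show that they were brought to a similar level. No detection p was given. Log2 was taken without further scaling. Of 28856 probe sets, 21789 have 1 symbol in the 2016 annotation, 1621 several and 5446 none. For the 999 genes with several probe sets the one with the highest mean was kept. Limma 3.58.1 in R 4.3.3 fitted 1 mean per group over all arrays (10 residual and 2.66 prior degrees of freedom, no trend), 2-sided, with 6 contrasts and Benjamini-Hochberg adjustment over all genes; it was tested on simulated data. For a single gene, 3 arrays against 3 cannot go below an exact permutation p of 0.1. The number of arrays limits the precision. Array values were planned for 17 chosen keratins, and per contrast the 8 called keratins of largest fold each way could be named. The text prints array values for only some of the groups, and Krt80, one of the 17, is given as changes only. Of each other list, the 2 called members of largest fold could be named, and further genes were named after their values were seen. Keratins and lists were chosen with earlier results of these data known. Alternatives covered the scaling, a filter on dim genes, the mean of a gene's probe sets, the variance model, the groups in the fit, a fold threshold and arrays left out.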

Additional observations from a re-analysis of the deposited data

Results flagged for a closer look

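For 7 keratins the tumor effect in kidney, in log2 units against the normal organ, exceeded the effect in liver by a test of that difference in the limma fit over all genes. The excess was 3.15 for Krt20 (adjusted p = 0.0136) and 2.10 for Krt18 (adjusted p = 0.0015), both of which rose in kidney tumors and did not pass in liver tumors. It was 2.22 for Krt20 without kidney tumor 1 and 5.01 with that array as the only kidney tumor. The other 5 are keratins outside the simple class that were lower, by less than 2-fold, in liver tumors and did not pass in kidney tumors. Their excess was 0.75 for Krt33b (adjusted p = 0.0212), 0.45 for Krt90 (0.0332), 0.45 for Krt28 (0.0224), 0.44 for Krt16 (0.0191) and 0.40 for Krt76 (0.0279). Each of these 5 lost its call when at least 1 array was left out, with an adjusted p of up to 0.0527, 0.0813, 0.0602, 0.0517 and 0.0702 in that order.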

How the results depend on the processing

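No single-keratin change that was called in the main run or in the alternative run reversed its direction between them. Changes called in neither run could switch sign and were not counted as reversed. Over the 8 keratins at least 2-fold higher in secondary than in primary kidney tumors, 109 of 109 alternative values kept their direction and side of the threshold; Krt6a, Krt17 and Krt75 have no value without the dimmest 33.3% of the genes, which removes them. Of 1958 alternative values of single keratins, 111 lost a call and 31 gained one.

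Leaving out the dimmest 33.3% of the genes took the counts higher and lower from 12 and 25 to 7 and 6 (secondary tumor against normal kidney) and from 13 and 8 to 7 and 2 (against primary tumor). The higher counts left there are no separate support, since some of their genes passed the filter only through the secondary arrays. Lower counts went from 8 to 2 (kidney tumor), 32 to 7 (liver tumor) and 13 to 6 (normal kidney against liver), and the organ difference from 7 to 3. Demanding 2-fold left 0 lower in kidney tumors, 1 lower against normal kidney, 8 higher and 1 lower against primary tumors, 1 higher and 0 lower in liver tumors, 1 higher and 2 lower between the organs, and 2 in the organ difference. Centring arrays gave 20 lower in kidney tumors and 1 higher in liver tumors. Quantile normalization gave 18 lower in liver tumors and 8 lower between the organs. Fitting the compared groups alone gave 0 higher and 18 lower in liver tumors. Without kidney tumors 2 and 3, 3 were lower in kidney tumors, 3 lower in secondary against primary tumors, and 2 passed in the organ difference. Without liver tumors 2 and 3, chosen after seeing the data, 0 were higher and 7 lower in liver tumors.

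Leaving out single arrays gave 4 to 4 higher and 7 to 12 lower in kidney tumors, 11 to 12 and 19 to 25 in secondary tumors against normal kidney, 10 to 13 and 5 to 7 against primary tumors (5 without secondary tumor 1), 0 to 4 and 21 to 31 in liver tumors, 3 to 3 and 7 to 12 between the organs, and 3 to 9 and 0 to 1 in the organ difference.

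Replicate numbers are shared between groups, and the labels do not say whether they pair the samples. Of 30 correlations of same-numbered arrays, 6 exceeded 0.1 (-0.278 to 0.272), and 28 of 60 were highest with their own number. Kidney and liver tumors correlated at 0.272 for number 1, 0.253 for number 2 and 0.00381 for number 3. Whether same-numbered tumors share an animal was not tested, and the organ difference treats them as independent. With a replicate block the counts were 4 and 8, 12 and 23, 12 and 7, 2 and 32, 3 and 10, and 8 and 0. With no detection p, the signal over background limits what dim keratins can show.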

Other observations

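Intermediate filament genes outside the keratin family were read as a list of 17. Against normal kidney, 8 were higher and 2 lower in kidney tumors and 11 and 1 in secondary kidney tumors, beside 21.7% and 28.1%, and 29.9% and 38.7%, of all genes. Ina, a filament gene of neurons, rose in kidney tumors by 3.75 ± 0.36 on the log2 scale (adjusted p = 3.52e-06, limma). Nefl, the light neurofilament gene, rose there by 3.23 ± 0.52 (adjusted p = 0.000201, limma). Both lay higher again in secondary kidney tumors, by 5.46 ± 0.36 and 4.77 ± 0.52 over normal kidney.

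Gfap, the filament gene of astrocytes, was 6.40, 6.19 and 6.32 in kidney tumors and 11.17, 11.35 and 10.85 in secondary kidney tumors. The groups lay far apart, and the rise was 4.82 ± 0.13 (adjusted p = 1.6e-10, limma), while kidney tumors differed from normal kidney by -0.17 ± 0.13 (adjusted p = 0.302, limma). In liver tumors 5 of the 17 were higher and 4 lower than in normal liver, beside 21.5% and 30.7% of all genes. Nes, a filament gene of neural progenitors, rose there by 2.03 ± 0.27 (adjusted p = 7.01e-05, limma), and the nuclear lamin gene Lmnb1 by 1.96 ± 0.21 (adjusted p = 1.25e-05, limma). Of the hair follicle list, the Wnt pathway factor gene Lef1 rose by 2.07 ± 0.12 in kidney tumors and by 1.76 ± 0.12 in liver tumors, and the homeobox gene Msx2 by 1.48 ± 0.26 and 1.41 ± 0.26.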
